A study of Mus musculus with 2 samples.

Results

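Nuclear receptors are transcription factors whose activity is set, in many cases, by small lipophilic ligands, and the genes described here are 38 members of this family in nuclei of the mouse vagus nerve ganglia. The members were chosen by gene symbol alone, with no use of their measured values, and all 38 were found among the 32286 genes of the count table, each in a single row. They comprise receptors for estrogen, progesterone, glucocorticoid and mineralocorticoid hormones, thyroid hormone, retinoids and vitamin D, the sensors of fatty acids, oxysterols and bile acids, and a series of orphan receptors with no settled natural ligand.

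Single-nucleus RNA sequencing, which counts mRNA molecules by unique molecular identifiers (UMIs) in droplets that each hold a nucleus, had been run on 1 library pooled from the 14 ganglia of 7 female mice and 1 library pooled from the 16 ganglia of 8 male mice. All mice were on the C57BL/6J background, carried the Rosa26-floxed-STOP-Cas9-eGFP allele, were fed standard chow, were 8 to 9 weeks old when purchased, and had received AAVrg-Cre, a retrogradely transported virus carrying Cre recombinase, into the liver 4 weeks before collection. Animals of each sex were pooled before the nuclei were isolated, so the effects of sex and of library cannot be told apart, and no test between them was possible. Every value below is therefore a description of these libraries, given as UMIs per 10000 UMIs of the same nuclei, and all 95% intervals (exact Poisson for a level, exact conditional binomial for a ratio, Clopper-Pearson for a share) cover counting error only.

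A nuclear receptor typically holds a zinc-finger domain that binds DNA and a ligand-binding domain that recruits coactivators or corepressors. Steroid receptors generally act as homodimers, whereas the thyroid hormone, retinoic acid, vitamin D, fatty acid and oxysterol receptors share the retinoid X receptors as partners. In the vagal ganglia, nodose neurons, derived from placodes, carry signals from visceral organs, and jugular neurons, derived from the neural crest, resemble somatosensory neurons. Both are wrapped by satellite glia and lie among Schwann cells, fibroblasts, vessels and fat.

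The female library held 3791 nuclei and 17435300 UMIs, and its median nucleus had 2381 UMIs from 1476 genes. The male library held 4923 nuclei and 27529730 UMIs, and its median nucleus had 2658 UMIs from 1671 genes. The libraries shared 8 barcodes. The X-inactivation transcript *Xist* was at 7.70 UMIs per 10000 in the female library but 0.0025 in the male one, and Y-linked *Uty* was at 0.0006 and 1.70. The eGFP transcript had 1 UMI in all. Nuclei were clustered without the nuclear receptor genes, sex-linked genes such as *Xist*, and the genes listed in the study's comparison of females and males. After this, 12 classes with at least 20 nuclei in each library were compared. Of these, 11 were named from marker genes and are called "like" for that reason, and the remaining class is named by its leading genes *Col25a1* and *Slc47a1*. The classes were of unequal size in the libraries: adipocyte-like nuclei made up 2.03% of female but 0.63% of male nuclei, and granule-like nuclei, which carry markers of cerebellar granule cells and are not a cell type of this ganglion, were 10.3% and 0.427%. A pituitary-like class of 57 female and 54 male nuclei is likewise foreign to the ganglion. Neuronal RNA was counted in every class: the summed level of 11 neuron markers was 57.8 in female and 63.7 in male sensory neuron-like nuclei, and over the non-neuronal classes, pituitary-like nuclei included, it ran from 12.8 to 29.1 in the female and from 29.3 to 44.4 in the male library.

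The members together took 123089 UMIs, or 0.2737% of all UMIs. Of the 38 genes, 36 had at least 20 UMIs over both libraries and are called measured. *Nr2e1*, which encodes the neural stem cell receptor TLX, had 0 UMIs, and *Nr5a1*, which encodes steroidogenic factor 1, had 4. Counts in nuclei include unspliced RNA and can grow with the length of a gene (Spearman's rho of UMIs and gene length 0.322 across 37 members, as a description). Genes were therefore set against each other mainly per 100 kb of gene, and whether counts rise in proportion to length was not tested. *Rora*, the longest member at 734 kb, took 39161 UMIs. Per 100 kb, *Nr2f2*, which encodes the orphan receptor COUP-TFII, was the highest member in 8 of the 12 classes. Among them were fibroblast-like nuclei at 34.2 UMIs per 10000 per 100 kb, mural cell-like nuclei at 25.4 and satellite glia-like nuclei at 15.4. By UMIs per 10000 without that scaling, *Rora* was the highest member in these named classes, at 12.9, 15.8 and 16.1. On the per-length scale *Ppara* was highest in adipocyte-like nuclei (25.3), *Nr2f1* in *Col25a1*/*Slc47a1* nuclei (13.8), and *Thra* in sensory neuron-like (5.24) and pituitary-like nuclei (4.79).

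Most members were present in several classes. A gene was called led by 1 class when its level there, averaged over the libraries, was at least 2-fold above the next class and the leading class held at least 20 of its UMIs, and 12 of the 36 measured members met this, against 14.1% of the 19305 genes measured. The ratio of the highest to the next class had a median of 1.63 over the members and 1.30 over all measured genes. Adipocyte-like nuclei led 4 members, *Col25a1*/*Slc47a1* nuclei 3, pituitary-like nuclei 3, and endothelial cell-like and satellite glia-like nuclei 1 each. Of all measured genes these classes led 2.03%, 0.606%, 0.901%, 1.25% and 0.705%, in that order. The leading class was the same in each library for 11 of the 12, *Nr4a3* being the exception. *Esrrb* and *Nr1h4* were past 2-fold on 9 and 7 UMIs in their highest class and were not called. By the same rule 9 of the 12 were called in the female library alone and 7 in the male library alone. *Nr1h3* and *Pgr* were under the UMI minimum in each single library, and *Nr3c2*, *Rarb* and *Rxrg* were under 2-fold in the male library. *Nr3c2* and *Rarb* were also not called with UMIs of both libraries summed, nor *Nr3c2* and *Rxrg* in nuclei of over 2000 UMIs. *Nr3c2* was not called with genes centred within each library, nor *Nr3c2*, *Rarb* and *Nr4a3* at a clustering resolution of 1. *Rorb* was not called with nuclear receptor genes kept in the clustering. With the 20 clusters named whole, without subclusters, 7 members were led, 5 of them among the 12 and 4 by the same class. *Esr1*, *Pgr*, *Rorb*, *Esrra*, *Esrrg*, *Nr1h3* and *Nr3c2* were then not called, so the pituitary-like leads and most adipocyte-like ones depend on the subclusters. No member was highest in sensory neuron-like nuclei, where 9.58% of all measured genes were highest, and 12 members had their lowest level there, against 9.45% of all measured genes.

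**Figure D1:**
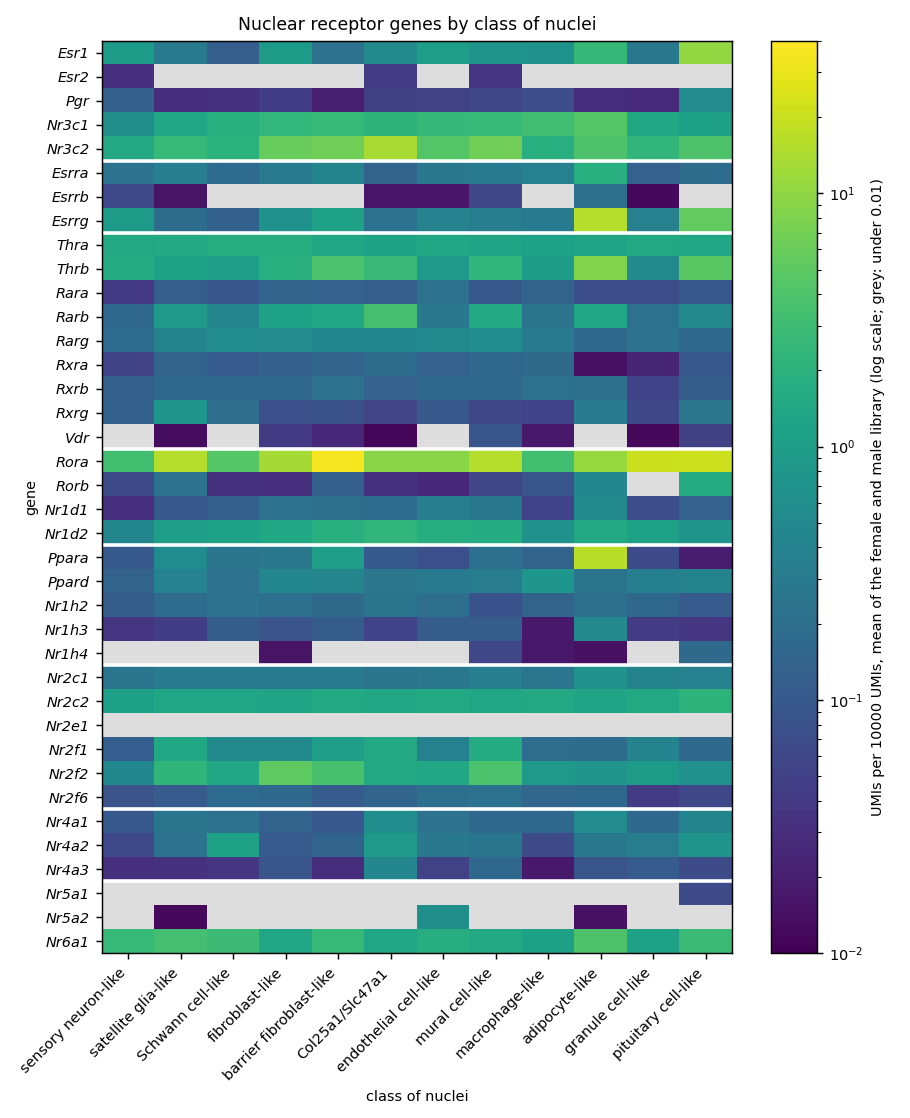
Level of each of the 38 nuclear receptor genes (rows, grouped by receptor type) in the 12 classes of nuclei (columns), as UMIs per 10000 averaged over the female and male library on a log colour scale, with grey for levels under 0.01. *Rora* is bright across classes and peaks at 35.8 in barrier fibroblast-like nuclei, *Ppara* and *Esrrg* stand out in adipocyte-like nuclei at 17.2 and 16.0, and *Nr2e1* is grey throughout.

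Among the steroid hormone receptors, *Esr1* (ENSMUSG00000019768, chr10:4611593-5005614 on GRCm38), which encodes estrogen receptor alpha, was led by pituitary-like nuclei. Its level there was 10.7 UMIs per 10000 (95% interval 9.54 to 12.1) in the female library and 10.3 (8.79 to 11.9) in the male library. Adipocyte-like nuclei came next at 2.97 and 2.10, which was 4.14-fold lower on average. Sensory neuron-like nuclei held 1.05 and 0.76, endothelial cell-like nuclei 1.31 and 0.69, and Schwann cell-like nuclei the lowest mean, 0.124. Pituitary-like nuclei were highest and adipocyte-like nuclei next in each library, whereas endothelial cell-like and sensory neuron-like nuclei changed order between the libraries. The female and male intervals overlapped in pituitary-like and adipocyte-like nuclei.

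The other estrogen receptor, *Esr2*, had 92 UMIs in all and its highest class mean was 0.0443, in *Col25a1*/*Slc47a1* nuclei on 6 UMIs. Sensory neuron-like nuclei had a mean of 0.0305. Those among them called jugular-like or nodose-like further on held 78 of the 92 UMIs. *Pgr*, the progesterone receptor gene, a classical target of estrogen receptor alpha, was also led by pituitary-like nuclei, at 0.671 (0.398 to 1.06) in the female library and 0.420 (0.169 to 0.866) in the male library. Sensory neuron-like nuclei were next at 0.131 and 0.123. These levels rest on 18 and 7 UMIs in pituitary-like nuclei.

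The corticosteroid receptors differed from each other in where they were highest. *Nr3c2* (ENSMUSG00000031618, chr8:76899442-77245012), which encodes the mineralocorticoid receptor, was led by *Col25a1*/*Slc47a1* nuclei at 17.5 (16.4 to 18.8) in the female library and 9.93 (9.28 to 10.6) in the male library, 2.06-fold over mural cell-like nuclei at 7.79 and 5.54. *Nr3c1*, the glucocorticoid receptor gene, was broad, with its highest level in adipocyte-like nuclei (3.79 female, 5.12 male) and its lowest in sensory neuron-like nuclei (0.69 and 0.57). Of 11 glucocorticoid-induced genes, 3 were led by a class, and none of these by adipocyte-like nuclei: *Tsc22d3*, which encodes the glucocorticoid-induced leucine zipper protein GILZ, by *Col25a1*/*Slc47a1* nuclei at 3.47, *Errfi1* by barrier fibroblast-like nuclei at 3.99, and *Cdkn1a* by Schwann cell-like nuclei at 1.60.

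The estrogen-related receptors, orphan relatives that promote mitochondrial and fatty acid oxidation genes, were highest in adipocyte-like nuclei. *Esrrg* (ENSMUSG00000026610, chr1:187608791-188214885) reached 20.3 (18.8 to 21.8) in the female and 11.7 (9.82 to 13.8) in the male library, with pituitary-like nuclei next at 6.34 and 4.74. *Esrra* was at 1.60 (1.21 to 2.09) and 2.02 (1.29 to 3.0), 4.28-fold over barrier fibroblast-like nuclei at 0.479 and 0.367. *Esrrb* had 208 UMIs, of which 53 female and 96 male UMIs were in sensory neuron-like nuclei at 0.0676 and 0.0578, and its nominal peak in adipocyte-like nuclei rests on 6 and 3 UMIs.

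The fatty acid and sterol sensors again included adipocyte-led members. *Ppara* (ENSMUSG00000022383, chr15:85734983-85802819), which encodes the fatty acid-activated receptor that drives fatty acid oxidation, was at 16.7 (15.4 to 18.1) in female and 17.6 (15.3 to 20.2) in male adipocyte-like nuclei. The next class, barrier fibroblast-like nuclei, held 1.36 and 0.710, a mean ratio of 16.6. With every nucleus thinned to 1000 UMIs, 75.0% of 108 adipocyte-like nuclei had a *Ppara* UMI (65.7 to 82.8%), against 1.11% of 2167 sensory neuron-like nuclei (0.711 to 1.64%). Without thinning the shares were 89.8% and 8.39%, at median depths of 3607 (female) and 3039 (male) UMIs in adipocyte-like and 5672 and 7496 in sensory neuron-like nuclei.

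*Nr1h3*, the gene of liver X receptor alpha, was also led by adipocyte-like nuclei, at 0.408 and 0.588 from 14 female and 7 male UMIs, with endothelial cell-like nuclei at 0.136 and 0.0979. *Nr1h2*, the gene of liver X receptor beta, had a highest class mean of 0.242, in *Col25a1*/*Slc47a1* nuclei, and none of 6 liver X receptor targets was led by a class. *Ppard* was highest in macrophage-like nuclei, at 1.03 and 0.518. *Nr1h4*, the bile acid receptor gene, had 34 UMIs in all.

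The coactivator and target genes of these sensors were highest in the same class. Of 10 targets of PPARs and estrogen-related receptors, a list that includes the member *Esrra*, 8 were led by adipocyte-like nuclei, against 2.03% of all measured genes. The class was named from fat cell genes such as *Plin1*, *Adipoq* and *Ucp1*, so these leads are not independent of the name. *Cd36*, the fatty acid transporter, was at 12.5, and *Pdk4* and *Cpt1b*, which favour fatty acid over glucose oxidation, were at 6.67 and 2.65. The coactivators *Ppargc1a* and *Ppargc1b* were the only 2 of 12 coactivator genes led by a class, with 11.0 and 14.6 in adipocyte-like nuclei, and none of 8 corepressors was. *Pparg*, the receptor gene that drives fat cell formation, was at 36.4 there, 43.9-fold over endothelial cell-like nuclei.

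**Figure D2:**
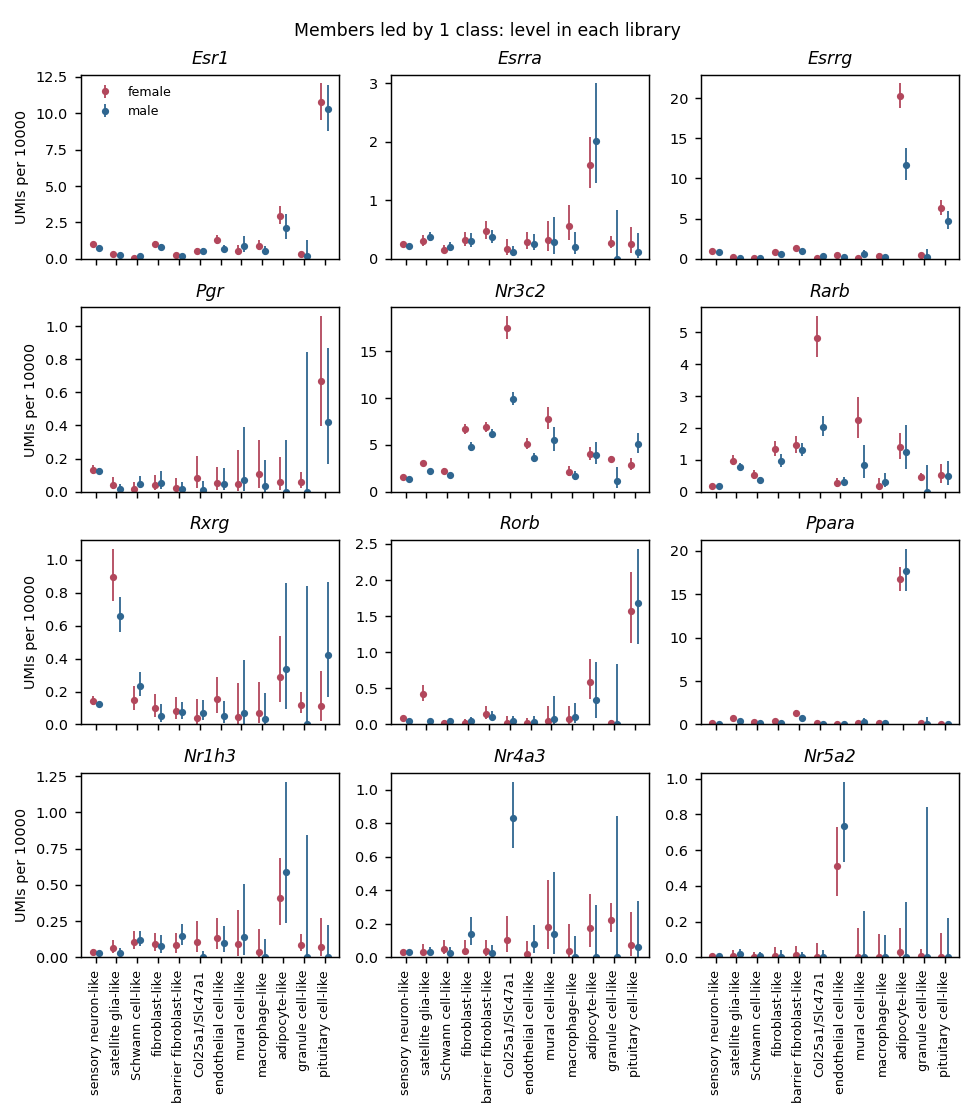
Level of the 12 members led by a class, in UMIs per 10000 on a linear axis from 0, in the 12 classes of nuclei, with the female (red) and male (blue) library side by side and 95% Poisson intervals as bars. *Esr1* is at 10.7 and 10.3 in pituitary-like nuclei, *Nr5a2* is near 0 outside endothelial cell-like nuclei, and the *Nr4a3* level in *Col25a1*/*Slc47a1* nuclei is 0.106 (female) and 0.831 (male).

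The thyroid hormone receptor genes had unlike patterns. *Thra* was nearly even, with class means from 1.14 in macrophage-like to 1.78 in Schwann cell-like nuclei. *Thrb* was highest in adipocyte-like nuclei, at 11.1 (10.0 to 12.3) in the female and 5.46 (4.21 to 6.96) in the male library, followed by pituitary-like nuclei at 6.41 and 3.24. *Thra* (chr11:98740638-98769006, plus strand) overlaps the 3′ end of *Nr1d1* on the other strand by 1075 bases, and whether the counting separated the strands there was not tested. Of the thyroid hormone handling genes, 4 of the 6 measured were led by a class, among them the activating deiodinase gene *Dio2* by adipocyte-like nuclei (1.18) and the transporter gene *Slco1c1* by endothelial cell-like nuclei (1.33).

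The retinoic acid receptor genes differed in their highest class. *Rarb*, which is itself a classical retinoic acid target, was led by *Col25a1*/*Slc47a1* nuclei at 4.84 (4.23 to 5.51) in the female and 2.04 (1.75 to 2.37) in the male library, with mural cell-like nuclei next at 2.25 and 0.842. *Rarg* had nearly equal means in mural cell-like (0.900 female, 0.281 male) and Schwann cell-like nuclei (0.740 and 0.438). *Rara* was highest on average in endothelial cell-like nuclei, at 0.289 and 0.147, but in the male library alone in *Col25a1*/*Slc47a1* nuclei. In contrast, 4 of the 11 measured genes of retinoid metabolism and binding were led by barrier fibroblast-like nuclei, with the retinoic acid-synthesizing enzyme gene *Aldh1a2* at 4.06, *Aldh1a1* at 2.45, the retinoic acid-degrading enzyme gene *Cyp26b1* at 0.609 and the retinol carrier gene *Rbp4* at 0.553. *Aldh1a2* was among the markers that named the class, so its lead is not independent of the name. In barrier fibroblast-like nuclei *Rarb* was at 1.47 and 1.31.

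Of the retinoid X receptor genes, *Rxrg* (ENSMUSG00000015843, chr1:167598384-167639623) was led by satellite glia-like nuclei, at 0.899 (0.752 to 1.07) in the female and 0.660 (0.559 to 0.773) in the male library, 2.48-fold over adipocyte-like nuclei. Thinned to 1000 UMIs, 8.88% of satellite glia-like nuclei had an *Rxrg* UMI (7.40 to 10.5%), against 0.923% of sensory neuron-like nuclei (0.565 to 1.42%), and without thinning the shares were 16.4% and 9.50%. The level varied within the glia. It was 1.77 in a subcluster of 187 nuclei, 179 of them female, and 1.74 in another of 240 nuclei, 225 of them male, both led by *Cdh19* and *Rasgef1c*, whereas it was 0.241 in a subcluster of 188 nuclei led by *Grid1* and *Fras1*. The highest class means of *Rxra* and *Rxrb* were 0.187 and 0.228, and *Vdr*, the vitamin D receptor gene, had 58 UMIs in all.

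*Rora* (ENSMUSG00000032238, chr9:68653786-69388246), which encodes a constitutively active activator of clock and lipid genes, was present in every class. It was highest in barrier fibroblast-like nuclei, at 43.1 (41.7 to 44.5) in the female and 28.5 (27.6 to 29.5) in the male library. Granule-like nuclei held 24.2 and 16.9, pituitary-like nuclei 23.3 and 19.1, satellite glia-like nuclei 19.4 and 12.8, and mural cell-like nuclei 16.0 and 15.5. Macrophage-like nuclei, at 3.49 and 3.11, and sensory neuron-like nuclei, at 3.85 and 2.58, were lowest. The barrier fibroblast-like level was 1.69-fold over the next class, under the limit for a lead.

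The *Rora* level was uneven within classes too. Barrier fibroblast-like subclusters ran from 9.04 to 50.6, the latter in 129 nuclei led by *Slc7a11*, *Ranbp3l* and *Slc6a20a*. Satellite glia-like subclusters ran from 8.81 to 26.2, and Schwann cell-like subclusters from 1.20 to 11.3. Sensory neuron-like subclusters ran from 0.864 to 27.8.

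*Rorb*, a relative known from sensory and clock neurons, was led by pituitary-like nuclei at 1.57 (1.13 to 2.12) in the female and 1.68 (1.12 to 2.43) in the male library, with adipocyte-like nuclei next at 0.583 and 0.336. The REV-ERB genes *Nr1d1* and *Nr1d2*, whose products repress at the same DNA elements, were low or broad. *Nr1d2* was highest in *Col25a1*/*Slc47a1* nuclei, at 2.80 and 1.88, and *Nr1d1* in adipocyte-like nuclei, at 0.641 and 0.420. Of 15 circadian clock genes, only *Hlf* was led by a class, barrier fibroblast-like nuclei at 6.23.

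The COUP-TF genes, orphan receptors of mesenchymal and neural patterning, were lowest in sensory neuron-like nuclei. *Nr2f2* was at 5.71 (5.25 to 6.19) in female and 4.42 (4.0 to 4.87) in male fibroblast-like nuclei, followed by mural cell-like nuclei at 3.74 and 3.79, and it was at 0.50 and 0.46 in sensory neuron-like nuclei. *Nr2f1* was at 1.49 and 1.82 in mural cell-like and at 1.87 and 1.12 in *Col25a1*/*Slc47a1* nuclei, so the libraries ordered these classes differently. The testicular receptor genes were close to even: *Nr2c2* class means ran from 1.07 in sensory neuron-like to 2.10 in pituitary-like nuclei, and *Nr2c1* was highest in adipocyte-like nuclei at 0.641 and 0.672. *Nr2f6* had a highest class mean of 0.218, in mural cell-like nuclei.

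*Nr5a2* (ENSMUSG00000026398, chr1:136842571-136960448), which encodes liver receptor homolog 1, had few UMIs but the sharpest class pattern. Endothelial cell-like nuclei held 75 of its 106 UMIs, at 0.510 (0.344 to 0.729) in the female and 0.734 (0.536 to 0.983) in the male library. The next class held 1 UMI, in female adipocyte-like nuclei. Of the 75, 59 lay in a subcluster of 130 nuclei led by *Cldn5* and *Slco1a4*, genes of the blood-brain and blood-nerve barrier endothelium, where the level was 1.31 (0.999 to 1.69), and the subcluster of 104 nuclei led by *Pkhd1l1* and *Eln* had 0 UMIs. With nuclei thinned to 1000 UMIs, 5.65% of 407 endothelial cell-like nuclei had an *Nr5a2* UMI (3.62 to 8.36%), against 0.0923% of sensory neuron-like nuclei, and without thinning the shares were 12.5% and 0.738%. *Nr6a1*, the germ cell nuclear factor gene, was broad, at 3.47 and 4.54 in adipocyte-like, 3.43 and 3.24 in satellite glia-like, and 2.65 and 2.55 in sensory neuron-like nuclei. *Nr6a1* lies 8.83 kb from *Nr5a1* on the same strand of chromosome 2, and had 5420 UMIs per 100 kb of gene against 18.3.

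The NR4A genes encode orphan receptors that are induced within minutes to hours by cyclic AMP, calcium and stress, and they have no known ligand pocket of the usual kind. By mean over the libraries *Nr4a2* was highest in Schwann cell-like nuclei, at 1.31 (1.12 to 1.52) in the female and 1.04 (0.897 to 1.20) in the male library, although in the male library alone *Col25a1*/*Slc47a1* nuclei were higher, at 1.42 (1.18 to 1.69). *Nr4a1* and *Nr4a3* were highest in *Col25a1*/*Slc47a1* nuclei, *Nr4a1* at 0.255 and 0.924 and *Nr4a3* at 0.106 and 0.831. The highest class of *Nr4a1* in the female library was adipocyte-like nuclei, at 1.11 (0.784 to 1.52) from 38 UMIs, where the male library had 0 UMIs in 31 nuclei (upper limit 0.310).

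The DNA before the RefSeq start sites of the NR4A genes is shown because these members moved together between the libraries in *Col25a1*/*Slc47a1* nuclei, as described further on. The sequences are from RefSeq on build GRCm38.p6, 5′ to 3′ on the strand of the gene, and capitals mark TGACG or its reverse complement, the half-site of the cyclic AMP response element. The *Nr4a1* window (chr15:101266596-101266845, plus strand) lies inside the longest annotated *Nr4a1* transcript, upstream of the main start. The *Nr4a2* window is chr2:57124004-57124253, minus strand. For *Nr4a3* (plus strand) only the 98 bases at chr4:48045055-48045152 that precede the annotated first exon are shown.
Nr4a1: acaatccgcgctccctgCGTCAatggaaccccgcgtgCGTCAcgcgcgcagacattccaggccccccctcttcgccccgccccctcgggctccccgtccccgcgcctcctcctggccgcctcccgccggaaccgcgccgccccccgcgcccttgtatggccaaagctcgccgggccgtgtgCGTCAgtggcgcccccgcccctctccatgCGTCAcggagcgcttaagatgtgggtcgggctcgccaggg
Nr4a2: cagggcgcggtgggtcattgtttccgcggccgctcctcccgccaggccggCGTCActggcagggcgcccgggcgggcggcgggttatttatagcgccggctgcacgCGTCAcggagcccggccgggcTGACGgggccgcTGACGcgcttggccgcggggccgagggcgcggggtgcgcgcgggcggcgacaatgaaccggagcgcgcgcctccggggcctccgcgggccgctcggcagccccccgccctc
Nr4a3: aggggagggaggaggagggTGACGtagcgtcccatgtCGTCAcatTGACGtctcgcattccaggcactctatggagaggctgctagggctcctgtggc
Each of the 3 windows of 250 bases held 4 such half-sites, counted on both strands, of which 3 fall in the part of the *Nr4a3* window that is shown. Of 32851 windows of that length before RefSeq start sites, 17.8% held at least 1 and 45, or 0.137%, held at least 4. The limit of 4 equals the number in the NR4A windows themselves, so this share is no test of them. The full palindrome TGACGTCA, which contains the half-site on each strand, was in none of the 3 and in 1.55% of all windows. The 35 members with a window had 53 windows in all, of which 13 held the half-site TGACG, 3 the E-box CACGTG (6.02% of all windows) and 8 AGGTCA, the half-site of many nuclear receptors (14% of all windows). A match of letters is a description and does not show a bound site.

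The members were then compared between the libraries. Over all nuclei, 0 of 36 measured members were at least 2-fold higher in the male library, where 2.39% of all measured genes were, and 3 were at least 2-fold higher in the female library, where 4.93% were. The median log2 ratio of male over female was -0.34 over the members and -0.05 over all genes. The 3 were *Rora*, at 13.4 (female) and 5.76 (male; log2 -1.22, 95% interval -1.24 to -1.19), *Ppara*, at 0.648 and 0.251 (log2 -1.37, -1.51 to -1.23), and *Esrrg*, at 1.55 and 0.745 (log2 -1.06, -1.14 to -0.98).

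The mixture of classes moved with these ratios. The female library had the larger shares of adipocyte-like nuclei, where *Ppara* and *Esrrg* were highest, and of granule-like nuclei, where *Rora* was high. The male library had the larger share of sensory neuron-like nuclei, 30.4% against 17.7%. The mean *Rora* level of that class, 3.22, was the lowest of the 12 classes. With each class given the same weight, the log2 ratio was -0.45 for *Rora*, -0.03 for *Ppara* and -0.63 for *Esrrg*, so that none was past 2-fold. With granule-like and adipocyte-like nuclei left out it was -1.13 for *Rora*, still past 2-fold, -0.96 for *Ppara* and -0.82 for *Esrrg*. Sensory neuron-like nuclei stayed in. So did nuclei outside the 12 classes, among them 81 inhibitory neuron-like nuclei of the female library with 2865 *Rora* UMIs. An unnamed subcluster of 36 nuclei, 35 of them female, also stayed in, with 2077 *Rora* UMIs. The female library held 23308 *Rora* UMIs in all, and the *Rora* ratio without these nuclei was not tested. Within adipocyte-like nuclei *Ppara* had a log2 ratio of 0.08 (-0.16 to 0.31) and *Esrrg* -0.80 (-1.07 to -0.53). These ratios include an adipocyte-like subcluster of 26 nuclei, all female, with *Ppara* at 24.4 and *Esrrg* at 23.7. The other subcluster, of 51 female and 31 male nuclei, held them at 14.7 and 16.4. *Rora* was lower in the male library in all 12 classes, from -0.05 in mural cell-like (-0.30 to 0.20) to -0.85 in endothelial cell-like nuclei (-1.03 to -0.67), and it was under 2-fold in each.

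**Figure D3:**
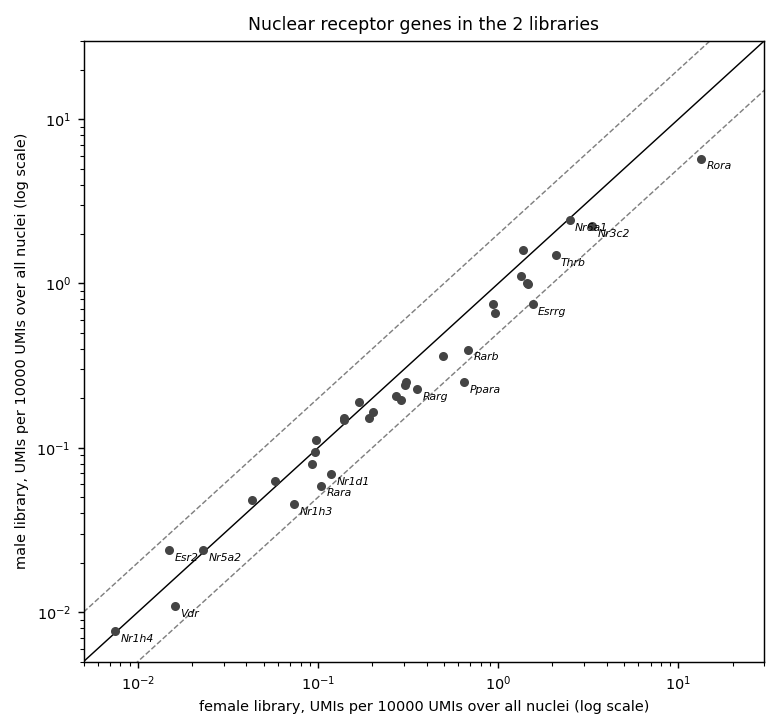
Level of the 36 measured members over all nuclei in the female (x axis) and male (y axis) library, in UMIs per 10000 on log axes, with the line of equality (solid) and 2-fold limits (dashed). Genes with a level over 2 or under 0.03 in the female library or a log2 ratio of at least 0.6 in size are labelled. *Rora* (13.4 against 5.76), *Ppara* (0.648 against 0.251) and *Esrrg* (1.55 against 0.745) lie below the lower dashed line, and no member lies above the upper one.

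Gene length moved with the ratio of the libraries as well. Over all nuclei the median log2 ratio fell from 0.16 in 5320 genes under 10 kb to -0.24 in 589 genes of at least 300 kb, and in sensory neuron-like nuclei from 0.24 to -0.21. All 6 members of at least 300 kb (*Esr1*, *Esrrg*, *Nr3c2*, *Thrb*, *Rarb* and *Rora*) were lower in the male library, over all nuclei and in sensory neuron-like nuclei, with medians of -0.68 and -0.28. The shorter members showed no steady fall over all nuclei. Their medians were 0.10 under 10 kb (4 members) and -0.42 from 10 to 30 kb (8). They were -0.28 from 30 to 100 kb (13) and 0.06 from 100 to 300 kb (5). Spearman's rho of length and ratio was -0.209 over 36 members, as a description. The part of length in the ratios of *Rora* and *Esrrg* was not tested.

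Within sensory neuron-like nuclei, 672 female and 1496 male, 0 of 33 measured members were at least 2-fold higher in the male library and 0 in the female library, where 1.9% and 1.39% of 17248 genes were. The median was -0.14 over the members and 0.03 over all genes. *Rora* was at 3.85 and 2.58 (log2 -0.58, -0.64 to -0.51), *Esrrg* at 1.03 and 0.796 (log2 -0.37, -0.49 to -0.24), and *Ppara* at 0.129 and 0.0813 (log2 -0.66, -1.05 to -0.28). These intervals lie below 0 and cover counting error only, with 1 library on each side.

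In *Col25a1*/*Slc47a1* nuclei 4 of 23 measured members, the 3 NR4A genes and *Esrrg*, were at least 2-fold higher in the male library, where 11.4% of 8999 genes were. *Esrrg* was at 0.149 and 0.312 there (log2 1.07, -0.17 to 2.51, from 7 and 27 UMIs). The log2 ratio of male over female in these nuclei was 1.86 (0.98 to 2.87) for *Nr4a1*, 2.26 (1.46 to 3.17) for *Nr4a2* and 2.97 (1.68 to 4.64) for *Nr4a3*, whereas over all nuclei it was -0.35, -0.39 and 0.11. *Nr4a2* there was at 0.297 from 14 female UMIs and 1.42 from 123 male UMIs. Of 8 measured immediate early genes, the class of rapidly induced genes to which NR4A genes are usually counted, all 8 were above 0 in these nuclei and 6 were at least 2-fold higher in the male library, against the same 11.4% of genes, with a median of 1.54. *Egr1* had a log2 ratio of 3.31 and *Fos* of 2.82. Over all nuclei 12 of 14 immediate early genes were above 0, with a median of 0.36 and 0 past 2-fold.

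The subclusters of *Col25a1*/*Slc47a1* nuclei were unequally filled by the libraries, and *Nr4a2* was higher in the male library in each of the 3 that held at least 18 nuclei of each. In a subcluster of 33 female and 94 male nuclei, *Nr4a2* had 0 female UMIs (upper limit 0.544) and was at 1.33 (0.912 to 1.88) in the male library. In another, of 26 female and 95 male nuclei, it was at 0.316 (0.0383 to 1.14) and 1.67 (1.24 to 2.19), and *Nr4a3* had 0 female UMIs (upper limit 0.583) and was at 1.34 (0.962 to 1.82) in the male library. In the subcluster of 85 female and 18 male nuclei *Nr4a2* was at 0.359 (0.186 to 0.628) and 1.10 (0.526 to 2.02), and *Nr4a3* at 0.120 (0.0326 to 0.307) and 0.219 (0.0265 to 0.792), with overlapping intervals. *Nr4a1* was also higher in male endothelial cell-like nuclei, at 0.0681 and 0.408 (log2 2.58, 1.05 to 4.57, from 4 and 25 UMIs). It was at least 2-fold higher in the female library in adipocyte-like, pituitary-like and granule-like nuclei, where 9.86%, 8.38% and 28.0% of measured genes were. *Nr4a3* was so in granule-like nuclei. In pituitary-like nuclei *Nr4a2* was lower in the male library (log2 -1.68, -3.23 to -0.40, from 31 and 6 UMIs). In Schwann cell-like nuclei, its highest class by mean, it was at -0.33 (-0.64 to -0.02).

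**Figure D4:**
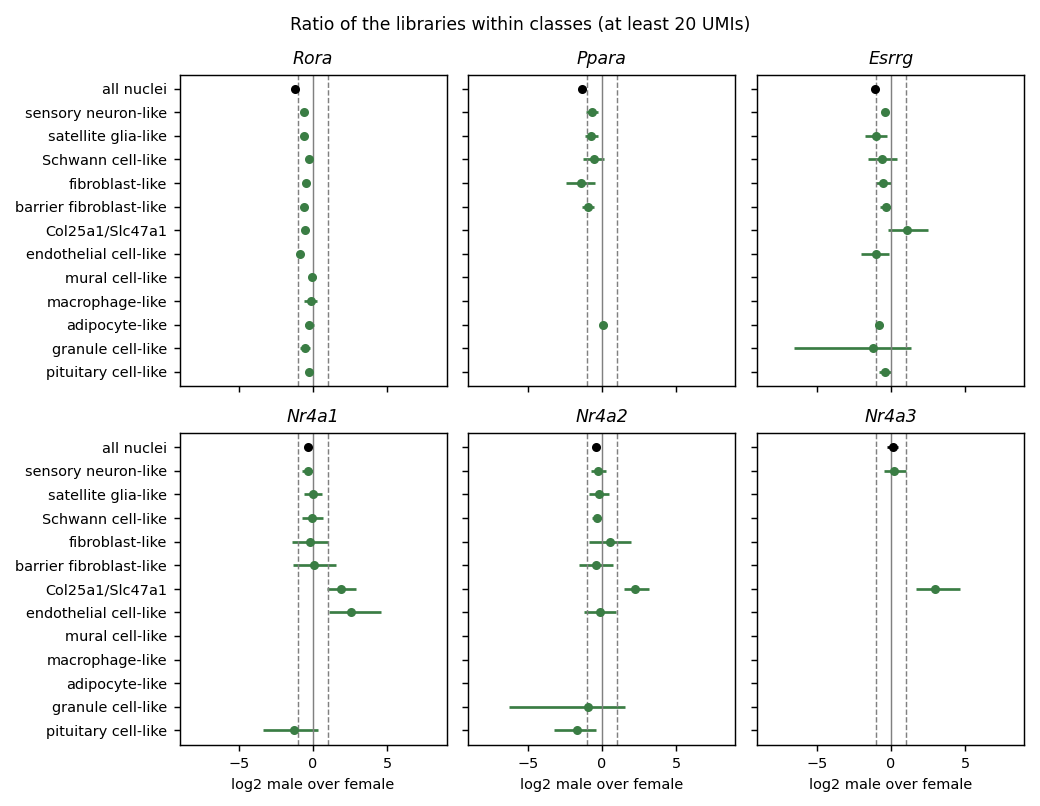
Log2 ratio of the male over the female library (x axis) for *Rora*, *Ppara*, *Esrrg*, *Nr4a1*, *Nr4a2* and *Nr4a3* over all nuclei (black) and within each class (green) where the gene had at least 20 UMIs and both libraries had some, with 95% conditional binomial intervals as bars. The *Rora* points lie below 0 in all 12 classes, and the 3 NR4A genes lie at 1.86, 2.26 and 2.97 in *Col25a1*/*Slc47a1* nuclei. Bars of granule-like nuclei are wide because the male library held 21 of them.

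The median log2 ratio of the 23 measured members in *Col25a1*/*Slc47a1* nuclei was -0.39, against 0.02 over the 8999 genes measured there, and 2 members, *Rarb* and *Nr1d1*, were at least 2-fold higher in the female library, where 4.42% of those genes were. In the subcluster of mostly female nuclei *Nr3c2* was at 19.5 (18.1 to 21.1) in the female and 10.3 (8.33 to 12.6) in the male library, whereas in the subcluster of 26 female and 95 male nuclei it was at 14.1 (11.3 to 17.3) and 13.1 (11.9 to 14.5).

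Sensory neuron-like nuclei were divided by marker genes into jugular-like (294 female and 499 male) and nodose-like (251 and 787) nuclei, with 127 and 210 left undivided. Among the markers used, *Prdm12*, a gene of neural crest nociceptors, was at 1.21 in jugular-like and 0.119 in nodose-like nuclei. Of 33 measured members, 1 was at least 2-fold higher in jugular-like nuclei, where 6.86% of 17183 genes were, and 6 were at least 2-fold higher in nodose-like nuclei, where 8.41% were.

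*Esr1* differed most among these. It was at 0.279 in jugular-like and 1.79 in nodose-like nuclei of the female library (log2 -2.68, -2.99 to -2.38) and at 0.195 and 1.13 in the male library (log2 -2.53, -2.81 to -2.27). Every nodose-like subcluster, from 0.541 to 2.99, lay above every jugular-like one, from 0.0638 to 0.454. The highest levels, 2.99 in 82 nuclei and 2.69 in 109 nuclei, were in subclusters that both had *Hs3st4*, *Cntn5*, *Unc5d* and *Alk* among their leading genes. Of the other steroid receptor genes, *Nr3c1* was at 0.741 and 0.542 and *Nr3c2* at 1.56 and 1.44 in jugular-like and nodose-like nuclei, both under 2-fold.

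The remaining members higher in nodose-like nuclei were lower in level. *Esrrg* was at 0.583 and 1.17 (log2 -1.0), just past the limit, and passed it in the male library (-1.36) but not in the female library (-0.76). Its highest nodose-like level was 3.13, in a subcluster of 83 nuclei, and a single jugular-like subcluster of 138 nuclei held 1.65. *Ppara* was at 0.0499 and 0.148 (log2 -1.57), *Rara* at 0.0235 and 0.0540 (log2 -1.20) and *Nr4a3* at 0.0159 and 0.0447 (log2 -1.49). *Rorb* was at 0.0185 and 0.0958 (log2 -2.37), but 58 of its nodose-like UMIs came from the subcluster of 83 nuclei, at 0.449, and its highest level in the neurons, 1.37, was in an undivided subcluster of 168 nuclei.

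*Esrrb* was the member higher in jugular-like nuclei, at 0.101 and 0.0391 in the female library (log2 1.37, 0.47 to 2.34) and at 0.0907 and 0.0352 in the male library (log2 1.37, 0.73 to 2.02). Of its jugular-like UMIs, 51 came from a subcluster of 147 nuclei, at 0.203. The other jugular-like subclusters ran from 0 to 0.117 and the nodose-like ones from 0 to 0.114, so these ranges overlapped. *Rora* fell just short of the limit, at 4.42 in jugular-like and 2.23 in nodose-like nuclei (log2 0.99). A jugular-like subcluster of 49 nuclei led by *Trpm8*, the cold and menthol channel gene, had a *Rora* level of 27.8 (26.4 to 29.2), while the other jugular-like subclusters ran from 1.78 to 6.48 and the nodose-like ones from 0.864 to 5.18. *Nr6a1* was at 3.35 and 2.02 (log2 0.73) and *Rarg* at 0.246 and 0.132 (log2 0.89).

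**Figure D5:**
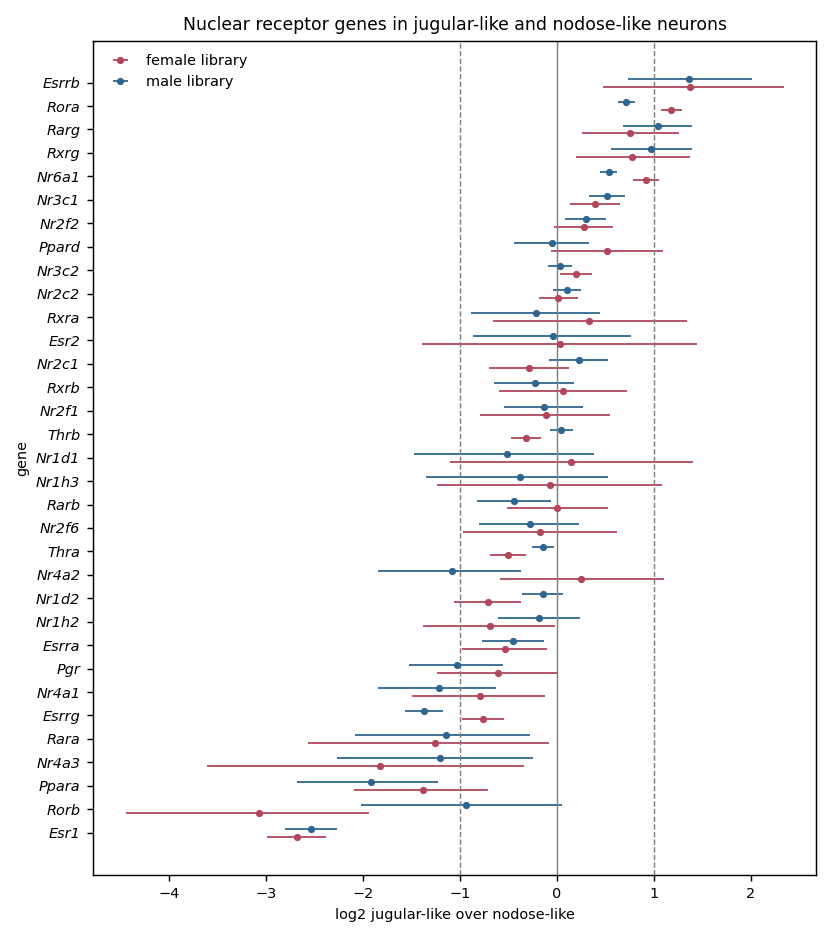
Log2 ratio of the level in jugular-like over nodose-like nuclei (x axis) for the 33 members with at least 20 UMIs there, in the female (red) and male (blue) library, with 95% conditional binomial intervals as bars and 2-fold limits as dashed lines. *Esr1* lies at -2.68 and -2.53 and *Esrrb* at 1.37 in each library, and the 2 libraries are apart for *Rorb* (-3.07 female, -0.93 male).

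Of 10 further nuclear receptor genes taken from a list outside the members, 5 were measured. *Pparg* is described above. *Hnf4g* was led by sensory neuron-like nuclei at 0.217, with 506 of its 578 UMIs there, whereas no member was led by that class. Between the libraries, over all nuclei, the list genes past 2-fold were higher in the female library with 1 exception, the retinoid-binding gene *Crabp1* (log2 1.11). Those higher in the female library were *Pparg* (log2 -1.74), *Ppargc1a* (-1.06), *Ppargc1b* (-1.29), *Pdk4* (-2.18), *Cpt1b* (-2.04), *Cd36* (-2.49), *Dio2* (-2.95), the clock gene *Arntl* (-1.02) and the retinaldehyde reductase gene *Dhrs3* (-1.0). The first 7 were led by adipocyte-like nuclei, whose share was larger in the female library, and within those nuclei *Cd36* had a log2 ratio of -0.34 and *Pdk4* of -1.67.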

How the data were processed

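The authors ran Cell Ranger 7.1.0 on the mm10 genome and removed low-quality and possible doublet droplets with Cell Ranger and DIEM; no doublets were called here. The deposited values are UMI counts per gene and nucleus for both libraries in a single table. The paper states that the libraries were aggregated with Cell Ranger and evened out by their confidently mapped reads. The lowest female nucleus had 980 UMIs, under the minimum the paper gives for keeping a barcode. Whether the counts had passed through the aggregation step was not tested, so the library depths given here may not be those before it. Barcodes carry a library number, and each library was given the sex whose stated nucleus number equals its barcode count. *Xist* and Y-linked genes were then checked. The 38 members, the gene lists and the limits were chosen with earlier results of these data known, and the naming limits and subclustering were set after the data had been seen.

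Nuclei were clustered by Louvain (10 principal components, 243 neighbours, resolution 3.6, 20 clusters) without nuclear receptor genes, then split into 85 subclusters. A subcluster took a name when at least 3 markers of a list, with at least 10 UMIs each, were 1.5-fold up. The mean log2 fold of the list had to be at least 0.4. It had to be at least 1 for granule, pituitary, sympathetic and inhibitory neuron lists and other lists of cells from elsewhere. Related lists excepted, a further list at 0.75 of the leading mean, or more than 1 further list over 0.8, left the subcluster without a list name. These names can differ from those of the study. Counts were summed per class and library, and a class level is the mean of the library levels. With 1 library per sex no model was fitted. Ratios used a minimum of 20 UMIs and 2-fold limits. Values were given in full for members led by a class, past 2-fold between libraries or between jugular-like and nodose-like neurons, or among the 3 highest of a class. Scripts were tested on simulated data. Genes of the annotation were taken from GENCODE M21 on GRCm38. Python 3.11.15, numpy 2.4.6, scipy 1.17.1, pandas 2.3.3, scikit-learn 1.9.0 and igraph 0.11.9 were used. Alternatives changed the weighting of nuclei, depth, scaling, clustering, fold limit and minimum count.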

Additional observations from a re-analysis of the deposited data

Results flagged for a closer look

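*Nr4a2* had opposite directions in 2 classes with at least 20 UMIs. Its log2 ratio of male over female was 2.26 in *Col25a1*/*Slc47a1* nuclei and -1.68 in pituitary-like nuclei. With 1 library per sex this difference between the classes was not tested. The flag needed a ratio in each class. *Nr4a1* had none in adipocyte-like nuclei, where the male library had no UMI of it, so its higher female level there lay outside the flag. Samples that stand apart within a group could not be looked for, since each group is a single library.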

How the results depend on the processing

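No paired analysis was possible because each sex is 1 library. Of 12 members led by a class, 7 were led at least 3-fold. With the 20 clusters named whole 7 were led, 5 of them among the 12 and 4 by the same class. For members higher in the female library over all nuclei (3), the count was 0 with classes given the same weight, 1 without granule-like and adipocyte-like nuclei and 9 at a 1.5-fold limit. For those higher in the male library (0), it was 1 with classes given the same weight and 1 at 1.5-fold. In sensory neuron-like nuclei (0 each way), 2 were higher in the male library as a mean over nuclei. There, 2 were higher in the female library with genes centred within each library, 1 with clusters named whole and 2 at 1.5-fold. For members higher in jugular-like nuclei (1), the count was 2 in the female library only, 2 in the male library only and 5 at 1.5-fold. As a mean over nuclei it was 1 with *Rxrg* in place of *Esrrb*. The other 40 counts over all results and alternatives stayed within 1.5 times the main count. Shares over all measured genes were computed for the main rule only, so the counts under alternatives have no background beside them. Of 48 alternative values of single genes, 14 moved by more than the spread between the libraries (levels) or out of the counting interval (ratios), and no direction reversed. The causes of these shifts were not tested. The alternatives with clusters named whole, without granule-like and adipocyte-like nuclei and without pituitary-like nuclei were chosen after seeing the data. Without pituitary-like nuclei 11 members were led, 10 of them among the 12. Granule-like nuclei of the male library (21) and adipocyte-like nuclei (31) limit the precision there.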

Other observations

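Nuclei outside the 12 classes held high levels of some members, given as values. In 125 sympathetic neuron-like nuclei of the male library *Rorb* was at 1.44 UMIs per 10000 (1.28 to 1.62), and *Rora* at 3.92. In 81 inhibitory neuron-like nuclei of the female library *Rora* was at 32.8 (31.6 to 34.0). An unnamed subcluster of 36 nuclei, 35 of them female, had the highest *Rora* level of any subcluster, 149.66 (143 to 156), and *Esrrg* at 13.8. A subcluster of 33 nuclei led by *Pomc*, the gene of the melanocortin and corticotropin precursor, had *Rorb* at 6.54 (5.22 to 8.08) and *Rora* at 25.7. In 69 nuclei led by the skeletal muscle genes *Ttn*, *Neb* and *Myh1*, *Esrrg* was at 9.91 (8.72 to 11.2) and *Rora* at 25.8.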
